A study of Mus musculus with 2 samples.

Results

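The genes described here encode subunits of the BAF (SWI/SNF) family of chromatin remodelling complexes, the ISWI ATPases Smarca5 and Smarca1, and the CHD remodellers Chd1 to Chd9. They are 39 named genes, matched by Ensembl gene ID and chosen by name rather than by level, out of 43346 Ensembl genes measured. Total RNA longer than 200 nt was sequenced from the midbrain of healthy B6NCrl mouse embryos at embryonic day 15.5, from 10 ng of RNA per library. The design had a single group of 2 biological replicates. Replicate 1 was a pool of 78 embryos and replicate 2 a pool of 62, with males and females mixed in each. Levels are given in TPM (a share of all transcripts, scaled by transcript length) as the mean ± SD of these libraries (SD, n = 2).

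Chromatin remodellers use ATP to slide, eject or exchange nucleosomes and so set which DNA can be read. BAF complexes are assembled from families of interchangeable paralogues. In the developing mouse nervous system a progenitor form, with Actl6a, Ss18 and Phf10 or Dpf2, gives way to a neuronal form with Actl6b, Ss18l1 and Dpf1 or Dpf3 as cells stop dividing. In mouse neurons this exchange is known to involve repression of Actl6a by miR-9* (mmu-miR-9-3p) and miR-124. CHD proteins are remodellers with paired chromodomains, and Chd3, Chd4 and Chd5 are ATPases of the histone deacetylase complex NuRD.

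The sequences shown here are those of the microRNA linked to the exchange of the actin-like subunits and of its match in Actl6a (gene at chr3:32706298-32726973, plus strand, from GENCODE M21 on mm10).
In mmu-miR-9-3p (RefSeq, GRCm38.p6; Mir9-1 copy at chr3:88215652-88215673, plus strand) capitals mark the seed, bases 2 to 8.
mmu-miR-9-3p: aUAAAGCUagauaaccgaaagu
In the 3′ UTR of Actl6a-201 (exonic; chr3:32726625-32726654, mm10, plus strand) capitals mark the bases complementary to that seed.
Actl6a site: cacctcaacgtctgtAGCTTTAgtacactc
The match AGCTTTA was searched on the transcript strand and occurred 1 time in the 371 nt UTR. Among 15668 genes whose longest 3′ UTR was at least that long, 442 (2.82%) held it in their first 371 bases. Over the whole of the longest 3′ UTR, 8 of the 39 genes held it (Smarca2, Smarcc1, Smarcd2, Smarce1, Arid2, Actl6a, Bcl11a and Bcl11b), beside 11.3% of genes with a UTR. Unlike the comparison over 371 bases, this one was not matched for UTR length, so no excess can be read from it. The match is a description, and the microRNA itself was not measured in these libraries of RNA above 200 nt.

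The tables held 38966386 expected counts in replicate 1 and 40419493 in replicate 2. Of the marker lists, neuronal genes (6 of 6 at 1 TPM or more in both libraries) summed to 3452 and 3493 TPM in replicates 1 and 2, neural progenitor genes (6 of 6) to 1524 and 1444 TPM, and midbrain genes (5 of 6, all but En2) to 153.6 and 140.0 TPM. Blood, vascular and microglial genes were present too. Erythroid genes (5 of 5) summed to 14767 and 11522 TPM, endothelial genes (4 of 4) to 156.1 and 132.5 TPM, and microglial genes (4 of 4) to 113.7 and 88.2 TPM. The libraries stood apart in genes of tissues outside the brain. Liver genes (1 of 3 expressed) summed to 17.4 and 2.92 TPM, muscle genes (2 of 4) to 61.2 and 8.57 TPM, and skin genes (1 of 3) to 6.90 and 17.0 TPM. All 3 liver genes and 2 of the muscle genes were more than 2-fold higher in replicate 1, and 2 of the skin genes in replicate 2. Proliferation genes (4 of 4) summed to 123.5 and 106.0 TPM. The part of these differences in the results below was not tested.

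All 39 genes were expressed, at 1 TPM or more in both libraries, beside 62.4% of all protein-coding genes and 35.4% of all Ensembl genes. The lowest value of any of them in either library was 8.94 TPM (Smarcd2 in replicate 2), and all but Smarcd2 and Chd9 reached 10 TPM in both (37 of 39). Each rested on between 488 and 17733 counts per library. Over the 39 genes the median came to 48.7 TPM and 51.0 TPM in replicates 1 and 2 (49.9 ± 1.61). For expressed protein-coding genes it was 20.3 TPM in each (20.3 ± 0.0141). On the log2(TPM + 1) scale the subunit median lay above by 1.26 ± 0.05 (1.22 in replicate 1, 1.29 in replicate 2), a gap larger than the difference between the libraries. Of the 39, 32 had a mean level above the coding median, and Smarcd2, Chd9, Arid1b, Chd1, Phf10, Arid2 and Chd2 did not. Both libraries held 9 of the genes at 100 TPM or above, beside 12.2% of expressed protein-coding genes. These were Actl6b, Smarce1, Smarcb1, Dpf1, Smarcd3, Smarcc2, Smarca2, Smarca4 and Pbrm1. These comparisons depend on the transcripts counted. On long transcripts, defined below and chosen after seeing the data, Smarca2 had 20.5 ± 0.290 TPM and Pbrm1 21.6 ± 0.0849. The gap between the medians was then 0.99 in log2(TPM + 1). Long transcripts held a median of 74.0% of TPM in the 39 genes, against 98.3% in expressed protein-coding genes. With 2 libraries an exact two-sided sign-flip test cannot go below p = 0.5, so no p is given for differences between genes within a library. In bulk tissue, fewer cells of a type and less RNA per cell cannot be told apart, and this holds for every level here.

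**Figure D1:**
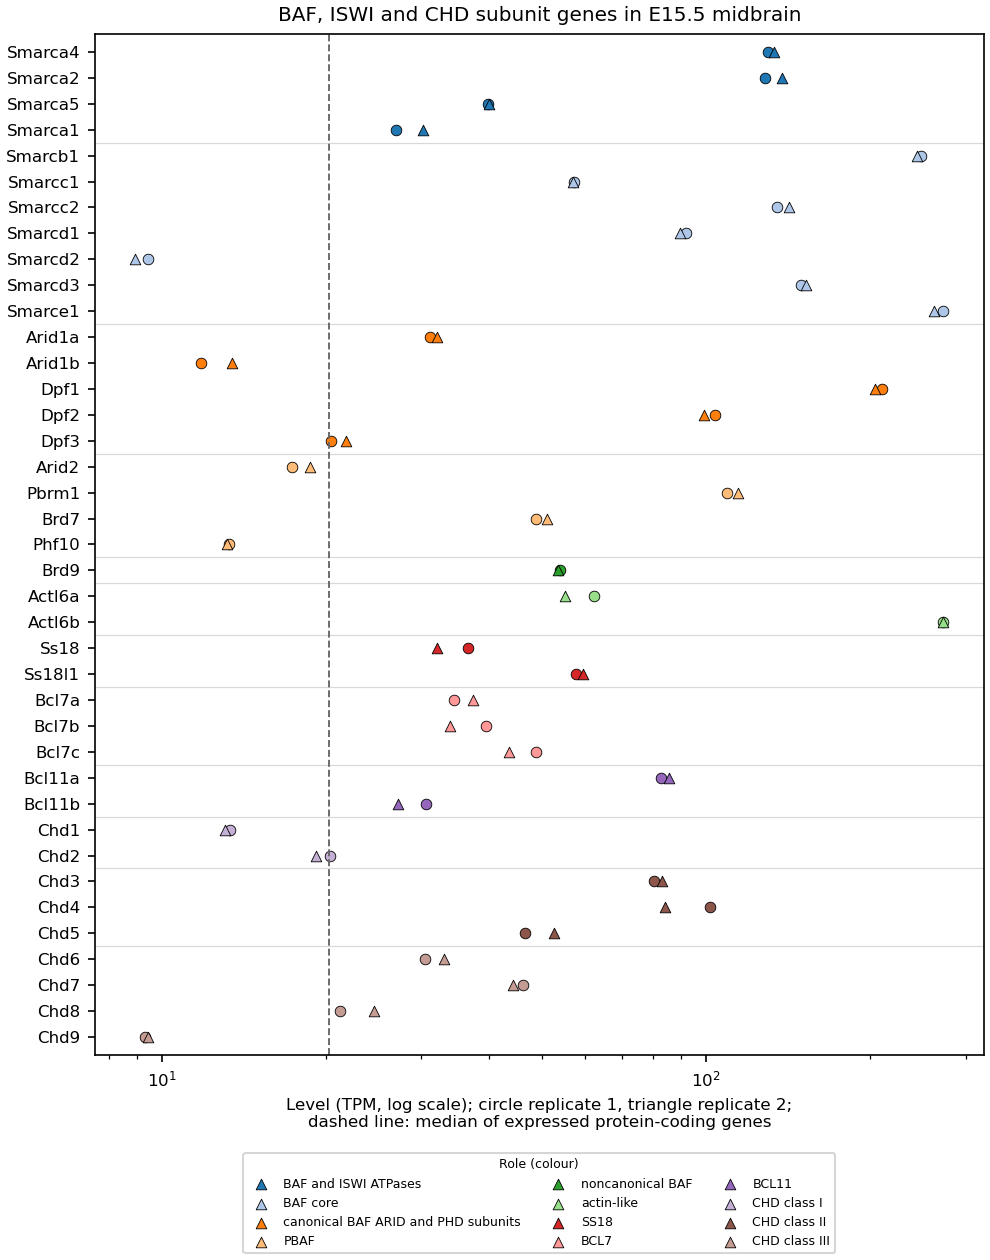
Level of each of the 39 genes in TPM on a log axis, ordered by role; circles are replicate 1, triangles replicate 2, and colours mark roles. The dashed line is the mean of the medians of expressed protein-coding genes in the 2 libraries, 20.3 TPM, and 32 of the 39 genes have mean levels to its right.

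The actin-like subunits held the widest gap among the exchanged pairs, with the neuronal member on top. Actl6a, the actin-like subunit of progenitor BAF, had 62.2 TPM in replicate 1 and 55.0 TPM in replicate 2 (58.6 ± 5.07). Actl6b (chr5:137553517-137569582, plus strand), its neuronal counterpart, had 273.0 and 272.9 TPM (273.0 ± 0.0354). By the mean TPM of all transcripts it was the highest of all 39 genes. The libraries did not overlap between these genes. Actl6a minus Actl6b was −2.20 ± 0.12 in log2(TPM + 1), −2.12 in replicate 1 and −2.29 in replicate 2. Actl6a thus took 17.7% ± 1.26 and Actl6b 82.3% ± 1.26 of their summed TPM. Exons of Actl6a share 11.6% of their bases with exons of Mrpl47 on the opposite strand, a gene at 22.6 TPM, and reads of both cannot be told apart without strand.

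The SS18 pair leaned the same way by a smaller margin. Ss18, at chr18:14624198-14682914 on the minus strand, is the progenitor member. It had 36.5 and 32.0 TPM in replicates 1 and 2 (34.2 ± 3.17). Ss18l1 (CREST), a calcium-responsive transactivator of neurons, had 57.6 and 59.4 TPM (58.5 ± 1.30). The values of the libraries did not overlap between the genes. Ss18 minus Ss18l1 was −0.76 ± 0.16 in log2(TPM + 1), and Ss18 took 36.9% ± 2.68 of the summed TPM of the pair.

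The third exchange concerns double PHD finger proteins, which read acetylated histone tails. Dpf2, the widely expressed member, had 104.1 and 99.0 TPM in replicates 1 and 2 (101.6 ± 3.55). Phf10, a PBAF subunit that marks progenitor complexes, had 13.3 and 13.2 TPM (13.2 ± 0.0707). The progenitor-type genes are therefore of unequal level, with Dpf2 carrying most of their sum of 114.8 ± 3.62 TPM. Dpf1, a neuronal member at chr7:29303951-29318243 on the plus strand, had 210.8 and 204.5 TPM (207.6 ± 4.45). Of this, the 428 nt Dpf1-207 held 20.9% ± 1.38 and the 438 nt Dpf1-209 19.7% ± 0.0919. These short transcripts, both annotated as coding, had 354 and 323 counts (Dpf1-207) and 330 and 328 (Dpf1-209). The whole gene had 6294 and 6459. Dpf3, also known from heart and skeletal muscle, had 20.4 and 21.8 TPM (21.1 ± 0.948). Dpf1 was likewise most of the neuron-type sum of 228.7 ± 3.50 TPM. The log2 difference of the progenitor-type sum minus the neuron-type sum was −0.99 ± 0.02 (−0.97 in replicate 1, −1.01 in replicate 2). Of the summed TPM of these 4 genes, Dpf1 took 60.4% ± 0.0419, Dpf2 29.6% ± 0.421, Dpf3 6.15% ± 0.403 and Phf10 3.85% ± 0.0593. Phf10 exons share 9.56% of their bases with 1600012H06Rik on the opposite strand (17.4 TPM). Where only transcripts at least 50% as long as the longest coding transcript of each gene were summed, an alternative chosen after seeing the data, the difference was −0.58. Over protein-coding transcripts alone, which keep Dpf1-207 and Dpf1-209, it was −1.89.

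**Figure D2:**
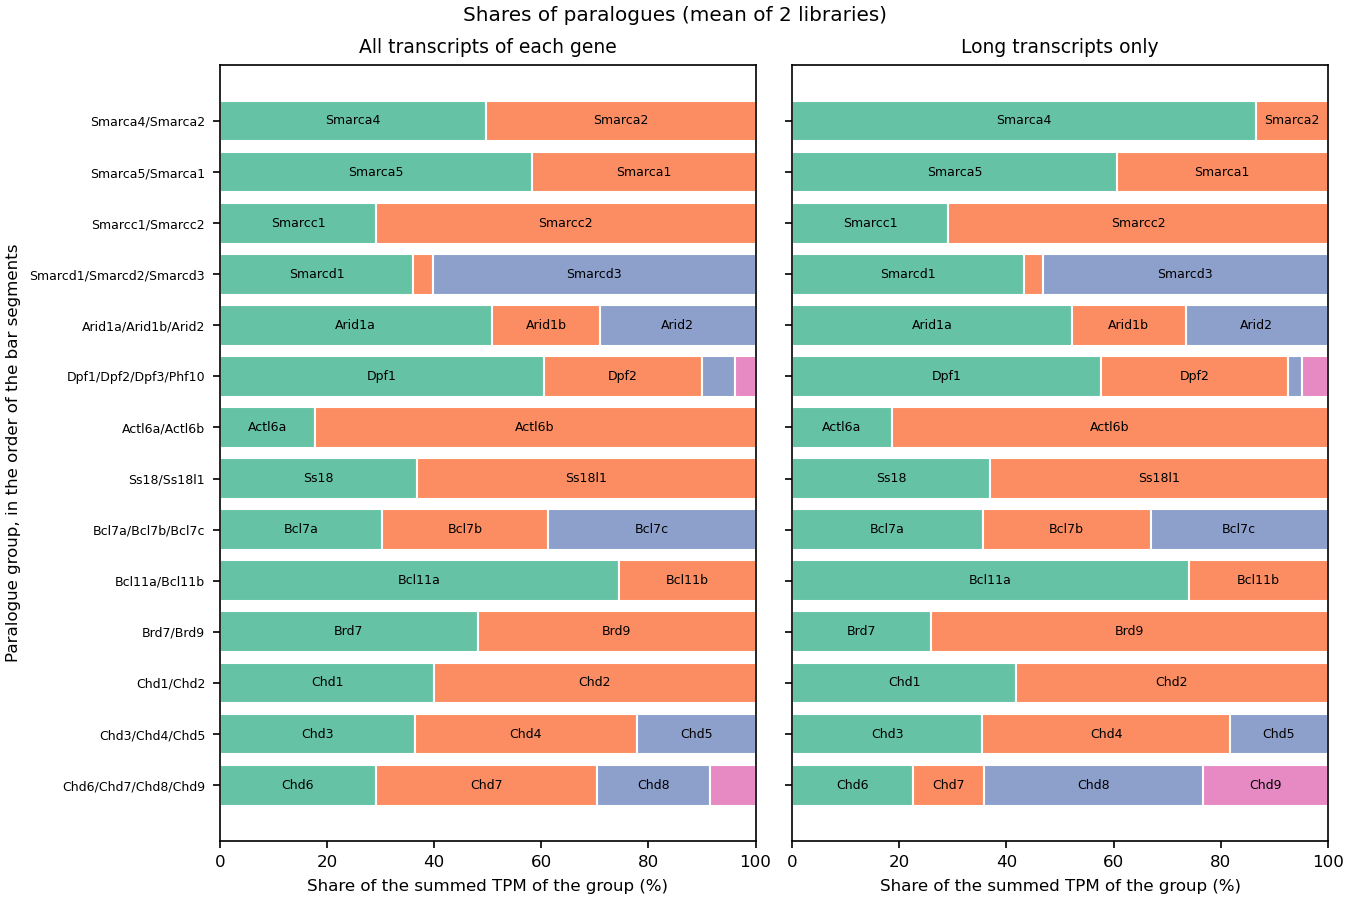
Share of each paralogue in the summed TPM of its family (%, mean of 2 libraries), with all transcripts of each gene on the left and only long transcripts on the right; row labels give the order of the segments. Actl6a takes 17.7% with all transcripts and 18.6% with long ones, whereas Smarca4 takes 49.7% and 86.5%.

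Among the motor subunits, the BAF ATPases Smarca4 (BRG1) and Smarca2 (BRM) could not be ordered by gene TPM. Smarca2, at chr19:26605050-26778322 on the plus strand, had 128.4 and 137.9 TPM in replicates 1 and 2 (133.2 ± 6.70). Smarca4, at chr9:21616169-21704230 on the plus strand, had 130.0 and 133.1 TPM (131.5 ± 2.18). Their order turned between the libraries, and Smarca2 minus Smarca4 was 0.02 ± 0.05 in log2(TPM + 1). Before any scaling by length, Smarca2 had 5681 and 6062 counts, and Smarca4 had 16819 and 17733. The leading Smarca2 transcript was Smarca2-215, annotated as subject to nonsense-mediated decay, 1460 nt long, with 51.4% of the TPM of the gene in replicate 1 and 45.6% in replicate 2. The 5858 nt coding transcript Smarca2-201 took 14.3% and 13.5%. On long transcripts alone Smarca2 stood at 20.5 ± 0.290 TPM and Smarca4 at 131.5 ± 2.18, with a difference of −2.63 in log2(TPM + 1).

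The ISWI ATPases space nucleosomes in regular arrays. Smarca5 (SNF2H), the more widely expressed of them, had 39.8 and 39.9 TPM in replicates 1 and 2 (39.9 ± 0.0566). Smarca1 (SNF2L), an X-linked gene with a role in neural progenitors in mouse, had 27.0 and 30.2 TPM (28.6 ± 2.32). Smarca5 was higher in both libraries, by 0.47 ± 0.11 in log2(TPM + 1). A transcript annotated as intron-retaining, Smarca5-202, held 52.5% of the Smarca5 TPM in replicate 1 and 54.1% in replicate 2. Over protein-coding transcripts the difference was −0.74.

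The core subunits included some of the most abundant of the 39 genes. Smarce1 (BAF57), which carries an HMG DNA-binding domain, had 272.4 and 262.3 TPM in replicates 1 and 2 (267.3 ± 7.10). Smarcb1 (SNF5), a core subunit known as a tumour suppressor in humans, had 248.8 and 244.0 TPM (246.4 ± 3.42). They ranked just below Actl6b, and 96.3% and 95.8% of expressed protein-coding genes lay below Smarce1 and Smarcb1. On long transcripts Smarcb1 (245.2 ± 3.34 TPM) lay above Actl6b (230.05 ± 3.15) and Smarce1 (191.9 ± 0.969). The scaffold subunits form dimers at the base of the complex. Smarcc2 (BAF170) had 135.1 and 142.2 TPM (138.6 ± 5.03) and Smarcc1 (BAF155) had 57.2 and 57.0 TPM (57.1 ± 0.177). Smarcc2 was higher by 1.26 ± 0.06 in log2(TPM + 1), and took 70.8% ± 0.813 of the pair.

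The BAF60 family binds transcription factors and showed the steepest ranking of the core. Smarcd3, known for its part in heart and muscle genes, had 149.5 and 152.7 TPM in replicates 1 and 2 (151.1 ± 2.26). Smarcd1 had 91.8 and 89.6 TPM (90.7 ± 1.54). Smarcd2, known for a role in granulocyte maturation in mouse, had 9.42 and 8.94 TPM (9.18 ± 0.339) and was the lowest of the 39 genes. The steps down were 0.73 ± 0.05 (Smarcd3 minus Smarcd1) and 3.17 ± 0.02 (Smarcd1 minus Smarcd2) in log2(TPM + 1), both far above their SD. The first step was 0.28 over protein-coding transcripts and 0.30 over long transcripts. Smarcd3 exons share 48.2% of their bases with Chpf2 on the opposite strand, at 13.0 TPM. The 4 muscle genes summed to 61.2 and 8.57 TPM in replicates 1 and 2. Of these, Actc1 and Tnnt2 passed as higher in replicate 1, while Acta1 (5.49 and 5.44 TPM) and Myh3 (0.18 and 0.13 TPM) did not. Smarcd3 counts were 4822 and 4893, a ratio of 1.02 that did not pass the test described below. The part of muscle in the Smarcd3 level was not tested.

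The ARID subunits, which tell one BAF form from another, stood below all core subunits except Smarcd2. Arid1a, the DNA-binding subunit of canonical BAF and a tumour suppressor in humans, had 31.1 and 32.0 TPM in replicates 1 and 2 (31.6 ± 0.651). Arid2, its counterpart in PBAF, had 17.4 and 18.7 TPM (18.0 ± 0.955). Arid1b, the alternative canonical subunit whose human gene is mutated in Coffin-Siris syndrome, had 11.8 and 13.4 TPM (12.6 ± 1.14). Neighbours in this order differed beyond their SD: Arid1a lay above Arid2 by 0.77 ± 0.04 and Arid2 above Arid1b by 0.48 ± 0.05 in log2(TPM + 1), the second of which was 0.30 over long transcripts. Arid1a took 50.7% ± 1.19 of the summed TPM of the family.

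Of the other PBAF subunits, Pbrm1, which reads acetylated histones through a row of bromodomains, had 109.5 and 114.4 TPM in replicates 1 and 2 (111.9 ± 3.46). Its leading transcript Pbrm1-215 held 52.0% and 49.1% of that, while the 7907 nt Pbrm1-207 held 17.6% and 16.9%. Brd7, the bromodomain subunit of PBAF, had 48.8 and 51.0 TPM (49.9 ± 1.55). Brd9, the bromodomain subunit that defines noncanonical BAF, had 53.8 and 53.4 TPM (53.6 ± 0.269). Brd9 was above Brd7 by 0.10 ± 0.05 in log2(TPM + 1), a small gap that widened when long transcripts alone were counted, where Brd9 took 74.1% of the pair and Brd7 25.9%.

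The BCL7 proteins are small BAF subunits, and their genes stood close together. Bcl7c had 48.7 and 43.5 TPM in replicates 1 and 2 (46.1 ± 3.73), Bcl7b had 39.4 and 33.8 TPM (36.6 ± 3.97), and Bcl7a had 34.4 and 37.4 TPM (35.9 ± 2.11). Bcl7c was above Bcl7b by 0.33 ± 0.04 in log2(TPM + 1). Bcl7b and Bcl7a could not be ordered, since their difference was 0.02 ± 0.24 and turned sign between the libraries. The leading Bcl7c transcript was Bcl7c-202, annotated as a decay target. Over protein-coding transcripts Bcl7c minus Bcl7b was −1.23, and over long transcripts it was 0.08. The leading member turned between the libraries under both: over protein-coding transcripts it was Bcl7b in replicate 1 and Bcl7a in replicate 2, and over long ones Bcl7c in replicate 1 and Bcl7a in replicate 2.

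The zinc finger proteins Bcl11a (CTIP1) and Bcl11b (CTIP2) associate with BAF in neural tissue, and Bcl11b is also needed for T cell development in mouse. Bcl11a, at chr11:24078056-24174123 on the plus strand, had 82.6 and 85.7 TPM in replicates 1 and 2 (84.1 ± 2.16). Bcl11b, at chr12:107910403-108003602 on the minus strand, had 30.6 and 27.2 TPM (28.9 ± 2.39). Bcl11a was higher in both libraries, by 1.51 ± 0.15 in log2(TPM + 1), and took 74.4% ± 2.06 of the pair. None of 4 T cell genes (Cd3e, Cd3d, Cd4, Cd8a) reached 1 TPM in both libraries, and together they summed to 0.270 and 0.230 TPM.

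The CHD family spread over a range between 9.38 and 93.0 TPM. In the first class, Chd2, whose human gene is mutated in a childhood epilepsy, had 20.4 and 19.2 TPM in replicates 1 and 2 (19.8 ± 0.877). Chd1, which binds methylated histone tails at active genes, had 13.4 and 13.1 TPM (13.2 ± 0.212). Chd2 was above Chd1 by 0.55 ± 0.04 in log2(TPM + 1), or by 1.39 over protein-coding transcripts, and its exons share 18.4% of their bases with 1810026B05Rik on the same strand (24.4 TPM).

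By the TPM of all transcripts, the NuRD ATPases were the highest of the CHD genes. Chd4 (Mi-2 beta), at chr6:125095981-125130591 on the plus strand, had 101.8 and 84.2 TPM in replicates 1 and 2 (93.0 ± 12.4). Chd3 (Mi-2 alpha) had 80.3 and 82.9 TPM (81.6 ± 1.81). Chd5, whose expression is best known in neurons, had 46.5 and 52.5 TPM (49.5 ± 4.26). Chd4 and Chd3 were not told apart, at 0.18 ± 0.22 in log2(TPM + 1), while Chd3 lay above Chd5 by 0.71 ± 0.09. Chd4 had the widest spread of the 39 genes, an SD of 13.4% of its mean, against a median of 3.10%. Its TPM was higher in replicate 1 but its counts were higher in replicate 2, at 6527 and 7079. The 369 nt intron-retaining transcript Chd4-208 held 50.4% of the TPM of the gene in replicate 1 and 36.1% in replicate 2, on 323 and 198 counts. The 280 nt Chd5-204, a processed transcript, likewise held 65.6% and 69.7% of the Chd5 TPM on 129 and 160 of its 2899 and 3088 counts. On long transcripts alone the order of the class stayed, with Chd4 at 40.6 ± 2.21, Chd3 at 31.1 ± 1.11 and Chd5 at 16.0 ± 0.0424 TPM. Over protein-coding transcripts Chd4 had 49.0 ± 1.44 TPM, Chd3 33.1 ± 2.87 and Chd5 7.22 ± 0.764, with differences of 0.55 (Chd4 minus Chd3) and 2.05 (Chd3 minus Chd5). Chd5 then lay below Chd7, Chd2, Chd8, Chd6 and Chd9, and on long transcripts its libraries overlapped those of Chd8.

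The third class holds Chd6 to Chd9. Chd7, whose human gene is mutated in CHARGE syndrome, had 46.2 and 44.2 TPM in replicates 1 and 2 (45.2 ± 1.38). Chd6 had 30.4 and 33.1 TPM (31.8 ± 1.86). Chd8, a human autism gene, had 21.3 and 24.6 TPM (22.9 ± 2.33), and Chd9 had 9.31 and 9.45 TPM (9.38 ± 0.0990). Each step was beyond its SD: 0.50 ± 0.12 for Chd7 minus Chd6, 0.46 ± 0.06 for Chd6 minus Chd8 and 1.20 ± 0.13 for Chd8 minus Chd9. This order was not kept on long transcripts, where Chd8 led with 16.6 ± 1.22 TPM, followed by Chd9 with 9.38 ± 0.0990, Chd6 with 9.12 ± 0.361 and Chd7 with 5.31 ± 0.177. Over protein-coding transcripts Chd7 minus Chd6 was 1.41 and Chd6 minus Chd8 was −0.053, and Chd8 minus Chd9 was 0.76 over either selection. The 2381 nt coding transcript Chd7-203 held 60.5% and 62.7% of the Chd7 TPM, while the 10216 nt Chd7-202 took 11.8% and 11.7%.

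The make-up of the transcripts differed widely among the genes. Of 35 genes with more than 1 listed transcript, 34 had the same leading transcript in both libraries, beside 91.7% of all such expressed genes. The exception was Brd7, led by the coding Brd7-201 in replicate 1 and the 511 nt Brd7-203 in replicate 2. The leading transcript was annotated as protein coding in 27 of the 35 and as something else in 8, beside 10.5% of expressed protein-coding genes with more than 1 transcript. Those 8 were retained introns in Smarca5, Chd3, Chd4 and Chd6, decay targets in Smarca2 and Bcl7c, and processed transcripts in Chd1 and Chd5. Less than 50% of TPM lay on long transcripts in 13 of the 39 genes, beside 10.7% of expressed protein-coding genes. They were Smarca2, Dpf3, Pbrm1, Brd7, both BCL11 genes and Chd1 to Chd7. The median share was 74.0% of TPM over the 39 genes and 98.3% over expressed protein-coding genes. By counts the median of the 39 was 94.1%, and 4 of them (Smarca2, Dpf3, Pbrm1 and Chd7) lay under 50%. Shares of transcripts are estimates from reads that isoforms share.

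**Figure D3:**
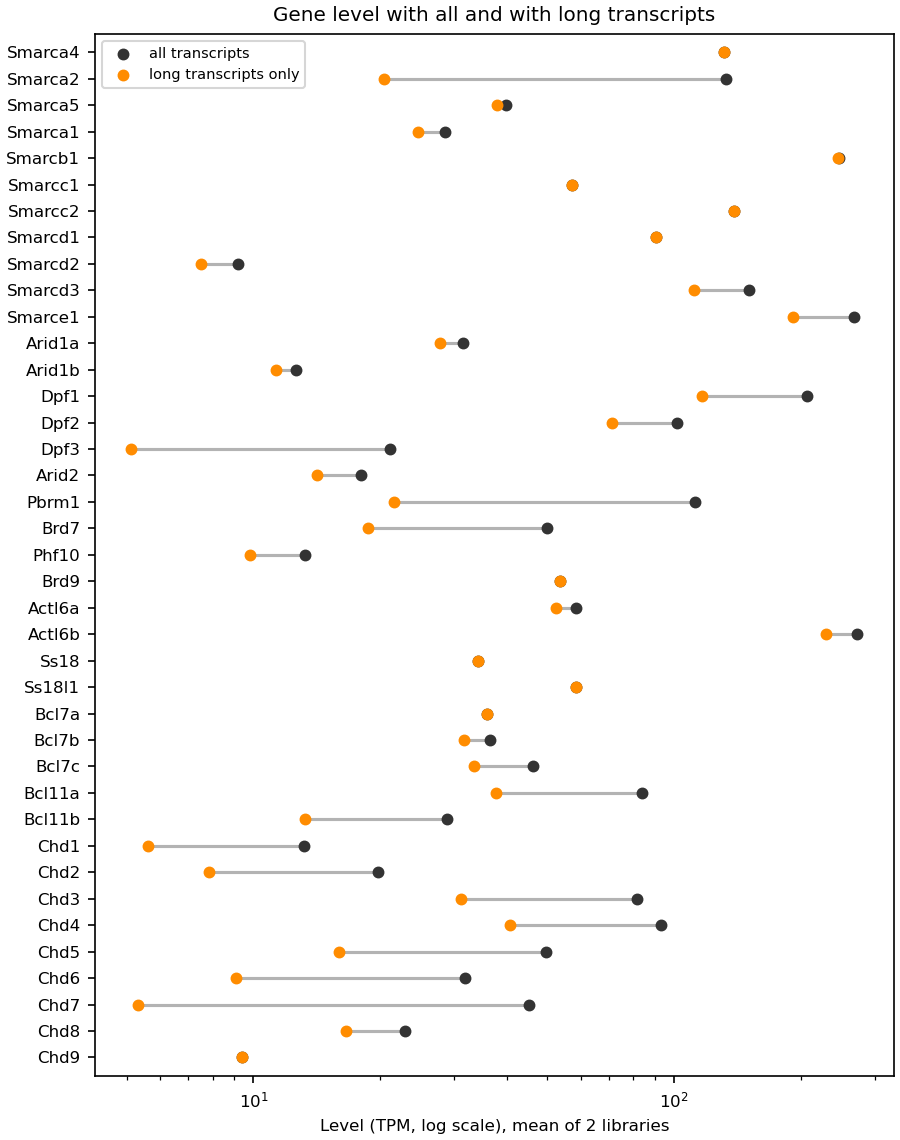
Mean TPM of each gene over 2 libraries on a log axis, with all transcripts (black) and with only those at least 50% as long as its longest coding transcript (orange); grey lines join the points of a gene. Chd7 (45.2 and 5.31 TPM), Smarca2 (133.2 and 20.5) and Pbrm1 (111.9 and 21.6) have long lines, while Smarca4, Smarcc2 and Chd9 have none.

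Between the pools none of the 39 genes passed an adjusted p under 0.05 with a 2-fold difference in a two-sided exact binomial test on counts (Benjamini-Hochberg over 18269 genes), beside 1.63% of all genes tested. At an unadjusted p under 0.05 there were 14, beside 30.5% of all genes tested. The log2 ratios of replicate 1 over replicate 2 ran between −0.15 and 0.18, with a median size of 0.0443, against 0.107 over all genes tested. Genes were tested from a mean of 10 counts, while each of the 39 had at least 488 per library. Ratios on few counts spread more by counting error alone. The median sizes are not matched for counts, so no greater steadiness of the 39 genes can be read from them. Without the fold threshold 9 of the 39 passed, 3 higher in replicate 1 and 6 higher in replicate 2, beside 10.1% and 9.18% of all genes tested and 19.3% in either direction. These p-values compare 2 libraries, each a pool, and not conditions.

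Each of the genes higher in replicate 1 was a small excess. Ss18 had 2564 counts in replicate 1 and 2335 in replicate 2, a ratio of 1.13 after scaling (95% counting interval 1.07 to 1.20, exact binomial test, adjusted p = 0.00019). Bcl11b had 3663 and 3443 counts, a ratio of 1.099 (1.049 to 1.152, exact binomial test, adjusted p = 0.000938). Actl6a had 2377 and 2260 counts, a ratio of 1.09 (1.03 to 1.15, exact binomial test, adjusted p = 0.0293). Of the progenitor-type subunits, Ss18 and Actl6a were among these genes, while Dpf2 (ratio 1.03, exact binomial test, adjusted p = 0.444) and Phf10 (ratio 1.05, adjusted p = 0.594) did not pass. The excess was uneven over transcripts, by estimated counts before scaling. Actl6a-201 had 1813 and 1790 in replicates 1 and 2, and the 922 nt Actl6a-202 157 and 69. Ss18-201 had 890 and 504, while Ss18-203 (1440 and 1539) and Ss18-202 (235 and 293) went the other way. Single transcripts were not tested. Without the fold threshold, 4 of 4 proliferation genes and 3 of 6 neural progenitor genes also passed as higher in replicate 1. So did 5 of 5 erythroid, 4 of 4 microglial, 3 of 3 liver, 3 of 6 midbrain, 2 of 4 muscle and 1 of 4 endothelial genes. Of 6 neuronal genes 1 passed as higher in replicate 1 and 4 in replicate 2, and 2 of 3 skin genes passed as higher in replicate 2. Over all genes tested 10.1% passed as higher in replicate 1 and 9.18% in replicate 2. The part of these differences in the ratios was not tested. The neuronal counterparts of these subunits did not pass: Ss18l1 had a ratio of 0.970 on 5710 and 6083 counts, and Actl6b a ratio of 0.988 on 8331 and 8712 counts.

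With TMM sizes, 6 genes were higher in replicate 2 by as little, of which Smarcc2 and Chd4 turn with spike-in sizes. Chd8 had 3243 and 3718 counts in replicates 1 and 2, a ratio of 0.901 (0.859 to 0.945, exact binomial test, adjusted p = 0.000242). Smarcc2 had 14478 and 15732 counts, a ratio of 0.951 (0.929 to 0.972, exact binomial test, adjusted p = 0.000194). The ratio was 0.916 for Chd6, 0.918 for Bcl7a, 0.923 for Smarca1 and 0.952 for Chd4. The adjusted p of these 4 lay between 0.00262 and 0.0281 in the exact binomial test.

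The split by direction depended on the scaling. Of all genes that passed without the fold threshold, 52.4% were higher in replicate 1 with TMM library sizes, 46.0% with DESeq2 size factors and 89.9% with spike-in totals as library sizes. Spike-in sizes moved every log2 ratio up by 0.0847. Counted by sign alone, whether or not they passed, 21 of the 39 genes were higher in replicate 1 and 18 in replicate 2 with TMM. With spike-in sizes these were 34 and 5. The percentages above cover passing genes only and are no background for these counts. Over all genes tested the median log2 ratio was 0.00257 with TMM and 0.0873 with spike-in sizes. Smarcc2 and Chd4 turned direction with spike-in sizes, to log2 ratios of 0.01 and 0.01. The other 4 genes higher in replicate 2 came closer to 0, at −0.07 for Chd8, −0.04 for Chd6, −0.04 for Bcl7a and −0.03 for Smarca1. The 3 higher in replicate 1 moved away from 0, at 0.27 for Ss18, 0.22 for Bcl11b and 0.20 for Actl6a.

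**Figure D4:**
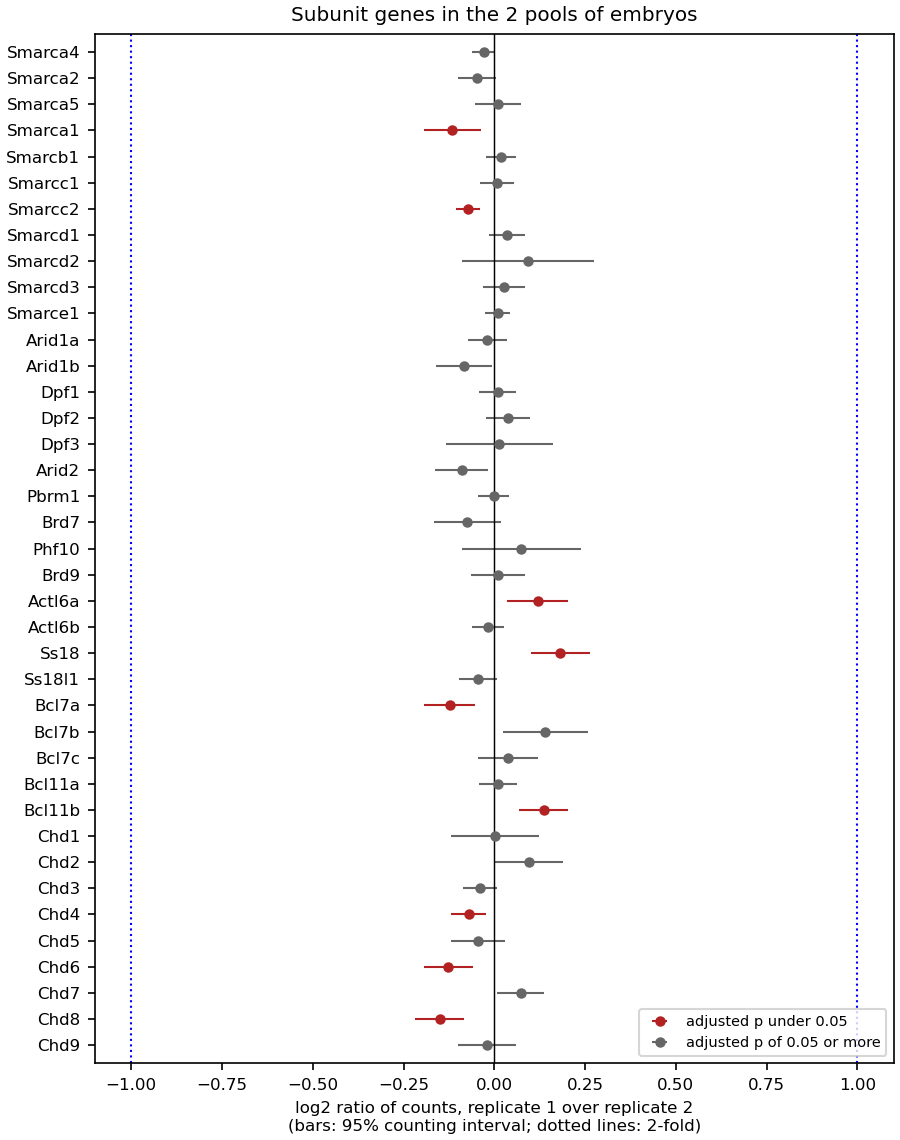
Log2 ratio of counts, replicate 1 over replicate 2, for each of the 39 genes with its 95% counting interval; red marks an adjusted p under 0.05 and dotted lines mark 2-fold. The points run between −0.15 (Chd8) and 0.18 (Ss18), and no interval reaches a dotted line.

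The listed partner genes and members of other remodeller families were expressed as well, 45 of 45 at 1 TPM or more in both libraries, and none passed with a 2-fold difference. Without the fold threshold 16 of them passed, 7 higher in replicate 1 and 9 higher in replicate 2, beside 10.1% and 9.18% of all genes tested, and this split moves with the scaling as above. By list, 5 of 12 NuRD genes passed as higher in replicate 1 and 1 in replicate 2. Of 9 ISWI partners 1 passed as higher in replicate 1 and 2 in replicate 2. In the list of 9 INO80, SRCAP and TIP60 genes 1 passed, as higher in replicate 1. Among CHD partners 3 of 4, and among other SNF2 genes 3 of 8, passed as higher in replicate 2. Of 3 other BAF partners 0 passed. The 12 NuRD genes had a median of 80.7 ± 12.9 TPM. On top were the deacetylase gene Hdac2 (276.3 ± 7.32), the histone chaperone gene Rbbp4 (215.2 ± 4.94) and Mbd3 (195.6 ± 14.98), for a methyl-CpG-binding domain subunit. The 4 CHD partner genes had a median of 89.7 ± 2.91 TPM, with the heterochromatin protein genes Cbx3 (301.6 ± 10.6), Cbx5 (119.3 ± 2.70) and Cbx1 (60.0 ± 3.12) highest. The 9 ISWI partner genes had a median of 24.2 ± 0.615 TPM, with Baz2b (66.7 ± 5.83) and the small histone-fold subunit genes Pole3 (49.5 ± 2.28) and Chrac1 (35.4 ± 1.00) on top.

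Beta-actin (Actb), a subunit of BAF but also of the cytoskeleton, had 5620 ± 8.25 TPM. Bicral (7.73 ± 0.198) and Bicra (7.34 ± 0.163), the scaffold genes of noncanonical BAF, lay far below Brd9 of the same complex. The other remodeller families gave a median of 71.0 ± 4.46 TPM over 9 INO80, SRCAP and TIP60 genes, led by Vps72 (175.1 ± 3.30), Znhit1 (107.8 ± 0.0990) and Ruvbl2 (84.3 ± 5.49). The 8 remaining SNF2 ATPase genes had a median of 11.5 ± 0.152 TPM, and Atrx (227.7 ± 13.3), which acts at heterochromatin, stood above Smarcal1 (25.0 ± 0.537) and Smarcad1 (21.6 ± 1.18).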

How the data were processed

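Per the labels, RNA was extracted with the mirVana kit and spike-in RNA was added. The authors deposited, per library, a gene table and a transcript table on mm10 with GENCODE M4, with expected counts, TPM, FPKM and, for transcripts, the percent of the abundance of the gene, per the file headers. Aligner, counter and strand use were not given in the sources used here. Symbols were matched by gene ID (42462 of 43346), and biotypes, coordinates and transcript types came from GENCODE M21 on the same build (244 of 246 transcripts of the 39 genes). The 26249 rows with a number as ID or phiX took at most 5.5e-05% of counts and were left out. Spike-ins took 2.30% and 2.42% of counts.

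Levels are deposited TPM; differences use log2(TPM + 1), a scale that compresses ratios of weakly expressed genes. At 1000 nt of effective length, 3 counts equal 0.128 and 0.124 TPM in replicates 1 and 2. Expected counts were rounded and tested with a two-sided exact binomial test on TMM library sizes (edgeR 4.0.16, R 4.3.3) over genes whose mean count reached 10, because edgeR's quasi-likelihood test needs replicates on each side. The log2 ratios used 0.5 added to each count. DESeq2 1.42.0 gave other size factors. Python 3.11.15, pandas 2.3.3, scipy 1.17.1, matplotlib 3.10.9 and Biopython 1.88 did the rest. The test was tested on data simulated with counting error only, so spread between pools was not part of that check. Intervals and floors cover counting error only, since PCR copies could not be told apart, and p-values take no account of spread between pools. All 39 genes are named, and of each partner list the 3 with the highest mean TPM. The genes and lists were chosen with earlier results of these data known. No protein sequences were used here.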

Additional observations from a re-analysis of the deposited data

How the results depend on the processing

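All 39 genes stayed expressed at 0.5 and 5 TPM, with FPKM, with posterior mean TPM, on long transcripts (an alternative chosen after seeing the data) and in each library alone. The median difference from expressed protein-coding genes was 1.26 in log2(TPM + 1), 1.06 on protein-coding transcripts, 0.99 on long transcripts and 1.22 to 1.29 leaving out a library. Actl6a minus Actl6b was −2.44 on protein-coding transcripts, and −2.29 to −2.12 leaving out a library. Ss18 minus Ss18l1 ran from −0.87 to −0.64 leaving out a library. The Dpf2 and Phf10 sum minus the Dpf1 and Dpf3 sum was −1.89 on protein-coding transcripts, −0.58 on long ones and −1.01 to −0.97 leaving out a library. The highest member of a family was the same in 11 of 14 families on protein-coding or on long transcripts, and in 13 in replicate 1 alone. Of 22 paralogue differences, 15 moved by more than the SD between libraries without a turn on protein-coding transcripts and 13 on long transcripts, and 3 turned sign on each. The 3 that turned on protein-coding transcripts were Smarca5 minus Smarca1 (−0.74), Bcl7c minus Bcl7b (−1.23) and Chd6 minus Chd8 (−0.053). On long transcripts the 3 were Dpf3 minus Phf10 (−0.82), Chd7 minus Chd6 (−0.68) and Chd6 minus Chd8 (−0.79). Not counted as turned are 2 differences whose sign already differed between the libraries: Smarca2 minus Smarca4 (−1.16 on protein-coding and −2.63 on long transcripts) and Bcl7b minus Bcl7a (−0.047 and −0.18). Changes of over 1.5 times not printed beside their results were Dpf1 minus Dpf2 (1.89 on protein-coding transcripts), Dpf2 minus Dpf3 (1.27 on protein-coding and 3.56 on long transcripts), Dpf3 minus Phf10 (1.75 on protein-coding transcripts), Brd9 minus Brd7 (1.47 on both) and Chd4 minus Chd3 (0.37 on long transcripts). With a pseudocount of 0.1, FPKM or posterior means, 21 of 22 such differences, all but Smarcd1 minus Smarcd2, moved by less than the SD between libraries.

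Between the libraries 0 of the 39 genes passed with the 2-fold threshold under all scalings tried. Without the threshold 9 passed with TMM sizes, beside 19.3% of all genes tested. With DESeq2 size factors 10 passed, and with spike-in sizes 20. No share over all genes is given for these 2 scalings, so their counts cannot be set against a background. With TMM sizes 298 of all genes passed with the threshold and 3524 without it. The same leading transcript was found in 34 of 35 genes on all transcripts, and in 28 of 28 that led by 10 points or more. On protein-coding transcripts it was 34 of 35 too, but there the exception was Smarca2. Its lead passed from Smarca2-201 in replicate 1 to the 494 nt Smarca2-207 in replicate 2. Smarca5, Smarcd3, Smarce1, Brd7, Phf10 and Bcl7c each have 1 coding transcript and could not differ there. No paired analysis was possible because the design has 1 group. Depth did not limit the detection of any of the 39 genes, with at least 488 counts each. The number of libraries limits every difference, since 2 pools give 1 estimate of spread. TPM of genes with very short transcripts rests on few counts, and no read-level check of those transcripts was made here.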
